A study of Mus musculus with 2 samples.

Results

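Receptors for the blood cell growth factors were followed in sorted cells of mouse acute myeloid leukaemia (AML). The set holds 9 genes, taken by symbol from the 46095 genes of the deposited count table: Kit, Flt3, Csf1r, Csf2ra, Csf2rb, Csf2rb2, Csf3r, Il3ra and Epor. All 9 symbols were found, and 8 of them had at least 20 counts over both libraries, the minimum for a ratio. Epor, with 1 count in all, did not reach it. The series compared leukaemia-initiating cells labelled wild type with cells labelled P2x7-KO, which are to lack P2x7, the ATP receptor whose gene is P2rx7. Each group is 1 library of bone marrow cells sorted as Mac1+ C-kit+ from C57BL/6 mice aged 8 weeks. The library titles end in Scr and KD, while the genotype fields read wild type and P2x7-KO. Not given in the sources used here: how the leukaemia was made, how P2x7 was removed, and whether mice were pooled.

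The libraries held 12456212 counts (wild type) and 12435916 counts (P2x7-KO). With 1 library per group there was no replicate check and no test between genotypes, so the intervals below hold counting error and nothing of the spread between mice or sorts. P2rx7 itself had 229 counts in the wild type-labelled library and 543 in the library labelled P2x7-KO, a ratio of 2.27 (95% interval 1.94 to 2.66), so the targeted gene went against the label. Both sort genes were detected, and Kit is described below. Itgam (the Mac1 alpha chain gene) stood at 186.9 and 542.6 CPM, counts scaled to 1000000 a library. It was thus 2.90-fold higher in the library labelled P2x7-KO (2.77 to 3.045), although the cells of both libraries were sorted as Mac1+. This value may reflect the sort, and its cause and its bearing on the receptor genes were not tested. In RNA from sorted bulk cells, a lower value from fewer cells of a type and one from less RNA per cell cannot be told apart.

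Growth factor receptors of the blood system belong to 2 protein families. Kit (receptor of stem cell factor), Flt3 and Csf1r (receptor of macrophage colony-stimulating factor and interleukin-34) are receptor tyrosine kinases, which pair up when ligand binds and phosphorylate each other. The others are class I cytokine receptors, which have no kinase of their own and signal through bound JAK kinases and STAT factors. In that family, the alpha chains Csf2ra and Il3ra bind granulocyte-macrophage colony-stimulating factor (GM-CSF) and interleukin-3, and the beta chain Csf2rb joins them to carry the signal. Mice have a further beta chain gene, Csf2rb2, whose protein serves interleukin-3 alone. Csf3r is the receptor of granulocyte colony-stimulating factor (G-CSF) and Epor that of erythropoietin, the hormone of red cell formation.

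The macrophage receptor gene and both beta chain genes were at least 2-fold higher in the library labelled P2x7-KO, the G-CSF receptor gene lay just under 2-fold, and the alpha chain genes and Flt3 lay near equality. A gene is called apart when the ratio of its counts, scaled by the TMM method of edgeR, is 2 or more in either direction and its 95% counting interval excludes 1. By this rule 3 of the 8 counted members were higher (Csf1r, Csf2rb and Csf2rb2) and 0 were lower. Over all 13363 genes counted, 10.8% were higher, 8.95% were lower and 19.8% were apart in either direction. The median log2 ratio was 0.77 over the 8 members and 0.005 over all genes counted. Counts of all 9 members summed to 19298 and 25877, a ratio of 1.28 (1.26 to 1.31).

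**Figure D1:**
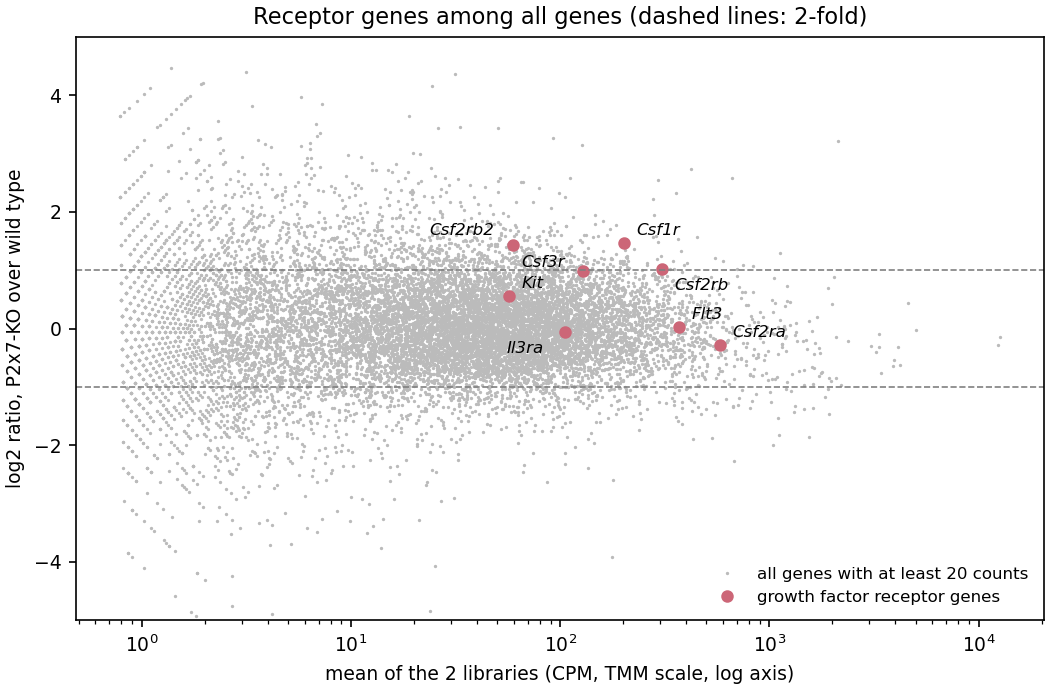
Each grey point is 1 of the 13363 genes with at least 20 counts, placed by its mean CPM over the 2 libraries (x, log axis) and its log2 ratio, P2x7-KO over wild type, with 0.5 added to each count (y). The 8 counted receptor genes are drawn in red, with Csf1r and Csf2rb2 well above the dashed 2-fold line, Csf2rb just above it and Csf2ra the lowest, and 24 genes lie beyond the y axis.

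Among the receptor tyrosine kinases, Csf1r stood apart from Kit and Flt3. Csf1r had 1309 counts in the wild type-labelled library and 3772 in the other, which is 107.6 CPM (Poisson 95% interval 101.9 to 113.6) against 296.2 CPM (286.8 to 305.8). It was thus 2.75-fold higher in the library labelled P2x7-KO (2.58 to 2.93), and 5.1% of all genes counted had a higher ratio. The gene lies on chromosome 18, and 873 bases of its merged exons are shared with Hmgxb3 on the opposite strand (GRCm38, GENCODE M21). Strand use in the counting is among the steps not given in the sources, so reads from that stretch cannot be assigned. Hmgxb3 had 781 and 668 counts, a ratio in the other direction (0.82, 0.74 to 0.91).

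Kit, the receptor that also served for the sort, lies on chromosome 5 (plus strand, 75574916 to 75656722). It had 559 and 861 counts, 45.95 CPM (42.2 to 49.9) in the wild type-labelled library and 67.6 CPM (63.2 to 72.3) in the other, a ratio of 1.47 (1.32 to 1.64). Since the cells of both libraries were gated on c-Kit protein, this value may reflect the sort and is not read as a finding. Its cause was not tested. Flt3, whose protein marks early myeloid and lymphoid progenitors and is often mutated in human AML, lies on the same chromosome from 147330741 to 147400489 on the minus strand. It had 4478 and 4760 counts, 368.1 CPM (357.4 to 379.1) and 373.8 CPM (363.3 to 384.6), a ratio of 1.02 (0.97 to 1.06). The Flt3 intervals overlap, while those of Kit and Csf1r do not. Of the counts of these 3 kinase genes, Csf1r took 20.6% (Clopper-Pearson 95% interval 19.6 to 21.6) in the wild type-labelled library and 40.2% (39.2 to 41.2) in the other. The share of Flt3 was 70.6% (69.4 to 71.7) and 50.7% (49.7 to 51.7), and that of Kit 8.81% (8.12 to 9.53) and 9.17% (8.59 to 9.77).

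In the GM-CSF and interleukin-3 receptors, it was the beta chain genes, not the alpha chain genes, that were higher under the label P2x7-KO. Csf2ra, on chromosome 19 (minus strand, 61223957 to 61228429), was the member with most counts. It had 7735 in the wild type-labelled library and 6644 in the other, 635.9 CPM (621.8 to 650.2) and 521.8 CPM (509.3 to 534.5), which is 1.22-fold lower in the latter (1.18 to 1.26). Il3ra, on chromosome 14 (plus strand, 14346275 to 14356011), had 1300 and 1310 counts, 106.9 CPM (101.1 to 112.8) and 102.9 CPM (97.4 to 108.6), a ratio of 0.96 (0.89 to 1.04). The Csf2ra intervals of the 2 libraries do not overlap, and those of Il3ra do. Of the Il3ra exons, 46 bases are shared with Gm48860 on the opposite strand.

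The beta chain genes lie side by side on chromosome 15, Csf2rb2 from 78282507 to 78305721 on the minus strand and Csf2rb from 78325752 to 78353847 on the plus strand. Csf2rb had 2472 counts in the wild type-labelled library and 5240 in the other, 203.2 CPM (195.3 to 211.4) and 411.5 CPM (400.4 to 422.8), a 2.03-fold ratio (1.93 to 2.13). Csf2rb2 had 392 and 1107 counts, 32.2 CPM (29.1 to 35.6) and 86.9 CPM (81.9 to 92.2), a 2.70-fold ratio (2.40 to 3.04). Neither gene has overlapping counting intervals between the libraries. Higher ratios were found for 10.9% of all genes counted in the case of Csf2rb and for 5.37% in that of Csf2rb2.

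The 2 beta chain genes resemble each other enough for reads to be split between them, so their sequences bear on these values. Their coding sequences (2691 bases in Csf2rb and 2637 in Csf2rb2, GENCODE M21) were identical at 95.2% of 2631 aligned positions, with 126 mismatches and a longest identical run of 242 bases. Of all stretches of 50 bases in the longest Csf2rb transcript, 18.4% also occur in transcripts of another gene, and 6.96% of those of 100 bases. For Csf2rb2 the shares were 19.5% and 7.2%, and every shared stretch of 100 bases in either gene was shared with the other beta chain gene. A window of 60 coding bases with 13 differences, the most of any such window within an exon, shows where reads can be told apart; capitals mark the bases that differ, at chr15:78338893-78338952 (plus strand) and chr15:78294379-78294438 (minus strand) of GRCm38.
Csf2rb: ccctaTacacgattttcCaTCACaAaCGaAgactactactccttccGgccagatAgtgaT
Csf2rb2: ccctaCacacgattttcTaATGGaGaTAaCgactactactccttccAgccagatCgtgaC
The treatment of reads with several matches is likewise not given, so the division of counts between the genes is uncertain while their sum is less so. Summed, the beta chain genes had 2864 and 6347 counts, 235.4 and 498.4 CPM, a ratio of 2.12 (2.03 to 2.21). As deposited, Csf2rb2 took 13.7% (12.4 to 15) of these counts in the wild type-labelled library and 17.4% (16.5 to 18.4) in the other, so the shares did not overlap.

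Proportions between alpha and beta chains do not depend on how the libraries are scaled. The library labelled wild type held 2.70 counts of Csf2ra for each count of the beta chain genes, and the library labelled P2x7-KO held 1.05, which is 2.58-fold lower (2.44 to 2.73). For Il3ra the values were 0.45 and 0.21, 2.2-fold lower (2.01 to 2.41). Of all counts of the 4 chains, Csf2ra took 65% (64.1 to 65.9) in the wild type-labelled library and 46.5% (45.6 to 47.3) in the other. Csf2rb went the other way, from 20.8% (20 to 21.5) to 36.6% (35.9 to 37.4). These proportions do depend on gene length and base composition where the libraries differ in them. After the log2 ratios were adjusted for the trend on length and GC content over all genes, Csf2ra stood at 0.12 and Il3ra at 0.45, against 0.93 for Csf2rb and 1.48 for Csf2rb2.

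Csf3r, which drives neutrophil formation, lies on chromosome 4 (plus strand, 126024550 to 126044440). It had 1053 counts in the wild type-labelled library and 2182 in the other, 86.6 CPM (81.4 to 91.9) and 171.4 CPM (164.2 to 178.7), a ratio of 1.98 (1.84 to 2.13). Just under 2-fold, it misses the rule, and Csf2rb at 2.03 just passes it. Of stretches of 50 bases in the longest Csf3r transcript, 11.5% occur in other genes, 402 of them, and of stretches of 100 bases 0.414%. Epor, on chromosome 9 (minus strand, 21958897 to 21963506), had 0 counts in the wild type-labelled library and 1 in the other. Both are within the limit that a count of 0 allows (3 counts, 0.247 and 0.236 CPM), so Epor RNA was not detectable at this depth and has no ratio.

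**Figure D2:**
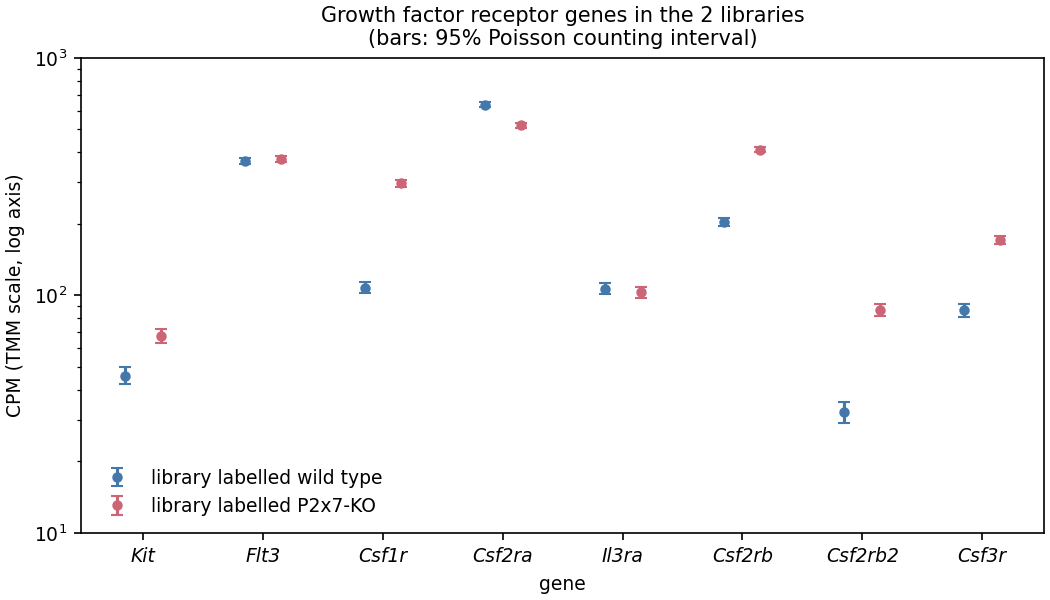
CPM on the TMM scale (y, log axis) of the 8 receptor genes with at least 20 counts (x) in the wild type-labelled library (blue) and the library labelled P2x7-KO (red), with Poisson 95% counting intervals as bars. Csf1r, Csf2rb, Csf2rb2 and Csf3r are higher in the latter with bars well apart, Csf2ra is lower, and the bars of Flt3 and Il3ra overlap.

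Between genes, levels can be set side by side only per length, as CPM per kilobase of merged exons. On this scale Csf2ra was the first of the 9 in both libraries, at 221.5 in the wild type-labelled library and 181.7 in the other, and Flt3 the second, at 59.6 and 60.5. In the library labelled wild type the order went on with Il3ra (36.0), Csf2rb (27.9), Csf3r (24.0), Csf1r (18.6), Csf2rb2 (6.80) and Kit (5.16). In the library labelled P2x7-KO it went on with Csf2rb (56.6), Csf1r (51.3), Csf3r (47.5), Il3ra (34.7), Csf2rb2 (18.3) and Kit (7.59). Il3ra thus stood above Csf2rb, Csf1r and Csf3r in the former and below them in the latter. Counting intervals of neighbours in either order did not overlap. With the longest transcript as the length, Csf2rb2 and Kit changed places in the wild type-labelled library and the intervals of Csf3r and Csf1r overlapped there, while the order in the other library was the same.

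All pairs of members were compared for a change of their proportion between the libraries, 36 in all. Of the 28 pairs without Epor, 25 had a ratio of proportions whose exact 95% interval excluded 1, and these also did so at 99%. Such differences are common at this depth: over all pairs of genes counted 66.1% had a normal 95% interval (0.5 added to each count) that excluded 1, and over all pairs of the 4259 genes with at least 1420 counts, the total of Kit, 86.3% did. The members' count is near the latter share, and the same interval gave 25 for them. The 3 that did not were Flt3 with Il3ra (1.05, 0.97 to 1.15), Csf1r with Csf2rb2 (1.02, 0.89 to 1.17) and Csf2rb with Csf3r (1.02, 0.94 to 1.12). At the far ends, the proportion of Csf1r to Csf2ra was 3.35 times as high in the library labelled P2x7-KO (3.12 to 3.60), and that of Csf2rb2 to Csf2ra 3.29 times (2.91 to 3.72). Kit lay between the groups: its proportion to Flt3 was 1.45 times as high (1.29 to 1.63), and that of Csf1r to Kit 1.87 times (1.65 to 2.12). The 8 pairs with Epor had intervals that included 1 in 8 of 8 cases, since Epor had 1 count.

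**Figure D3:**
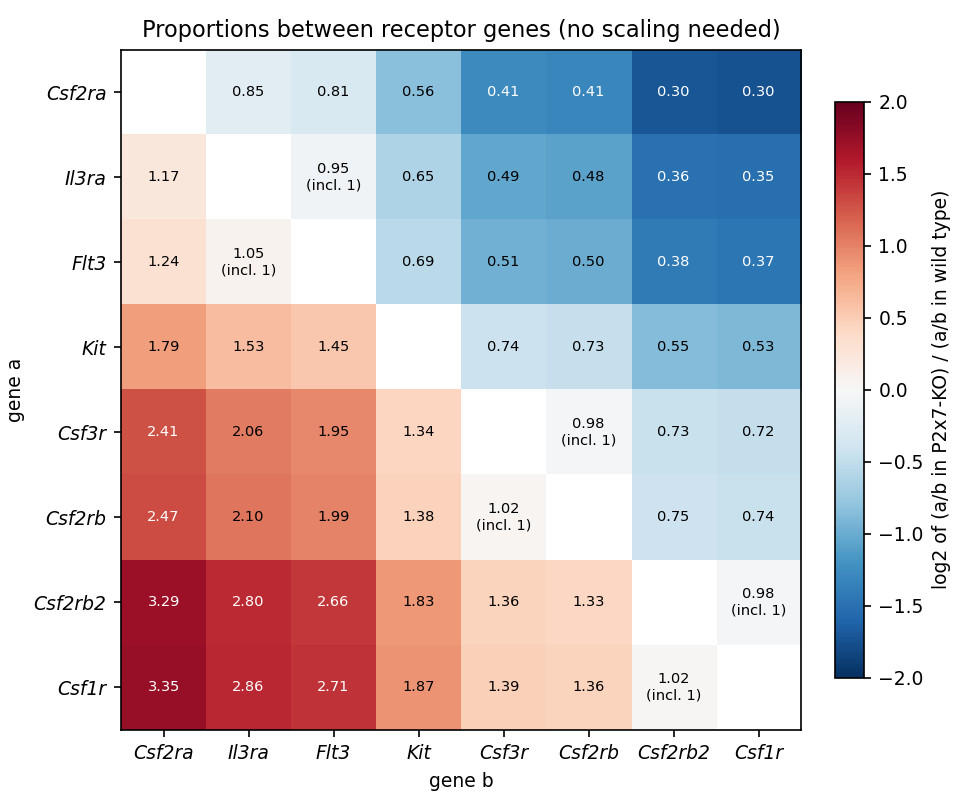
Each cell gives the proportion of gene a (rows) to gene b (columns) in the library labelled P2x7-KO divided by that in the wild type-labelled library, coloured by its log2 value. Cells marked as including 1 have an exact 95% interval over 1, and the red lower left block sets Csf3r, Csf2rb, Csf2rb2 and Csf1r against Csf2ra, Il3ra and Flt3.

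Csf1r and Csf2rb2 were past 2-fold under every scaling and adjustment tried, while Csf2rb and Csf3r changed sides. With total count scaling 4 of the 8 members were higher (12.3% of all genes were, and 7.72% were lower), as with the size factors of DESeq2 (11.6% and 8.25%), and Csf3r was the gene added, at log2 ratios of 1.05 and 1.02. With upper quartile scaling 2 were higher (10.2% of all genes, with 9.53% lower), since Csf2rb came to 0.98. After adjustment for length alone, or for length and GC together, 3 were higher (8.88% and 8.49% of all genes with both values, against 6.21% and 5.82% lower), with Csf3r in at 1.05 and 1.17 and Csf2rb out at 0.73 and 0.93. At a fold of 1.5 in place of 2, the 4 higher members were Csf1r, Csf2rb, Csf2rb2 and Csf3r (21.1% of all genes, with 18.9% lower), and Kit at 1.47 lay just outside. Under none of these settings was a member called lower.

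Directions of the members near equality depended on the setting. The log2 ratio of Csf2ra, -0.29 (-0.33 to -0.24), turned to 0.12 (0.07 to 0.16) after the length and GC adjustment. That of Il3ra, -0.05, became 0.01 with total count scaling, 0.09 after adjustment for length and 0.45 (0.33 to 0.56) after the length and GC adjustment. That of Flt3, 0.02, became -0.01 with upper quartile scaling, -0.19 after adjustment for length and -0.11 (-0.17 to -0.05) after the length and GC adjustment. Kit kept its sign but came from 0.56 to 0.19 after adjustment for length and 0.21 (0.06 to 0.37) after the length and GC adjustment.

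**Figure D4:**
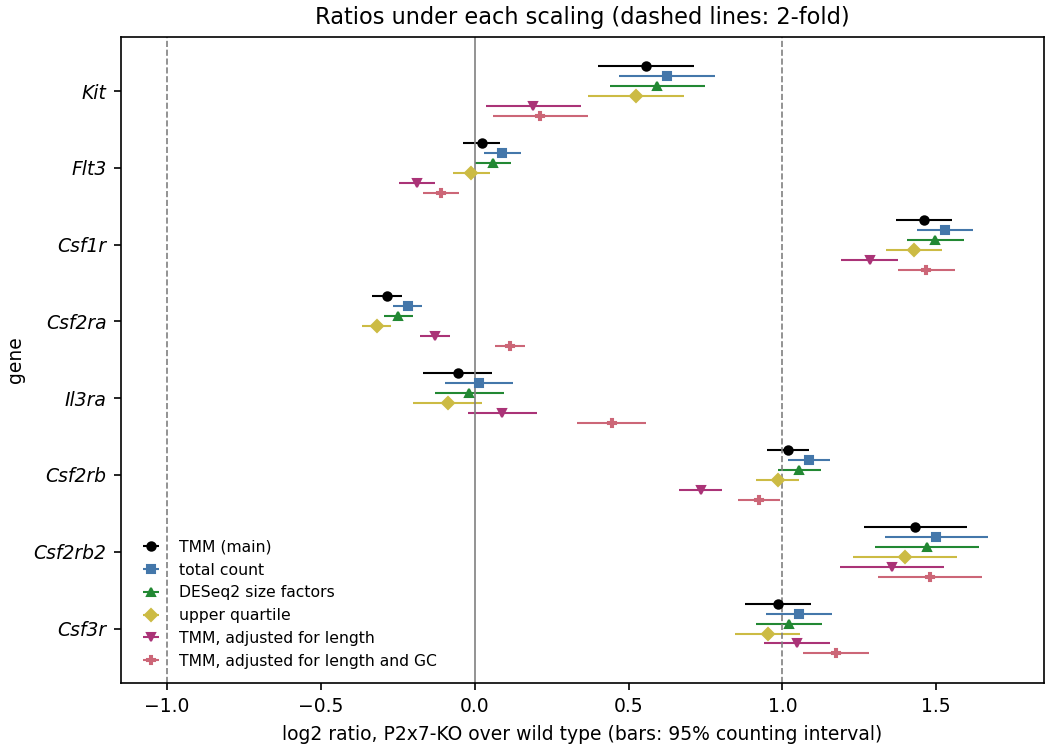
Log2 ratios, P2x7-KO over wild type (x), of the 8 counted receptor genes (y) under 4 scalings and 2 adjustments of the TMM values, with 95% counting intervals as bars and dashed lines at 2-fold. Csf1r and Csf2rb2 lie to the right of the line throughout, Csf2rb and Csf3r straddle it, and Csf2ra, Il3ra and Flt3 lie on both sides of 0.

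Promoter sequence was at hand for 7 of the 9 genes (RefSeq, GRCm38.p6), not for Csf1r and Csf2rb. For 2 of the 7, Csf2rb2 and Flt3, the RefSeq start is also where the gene begins in GENCODE M21, and the 250 bases before it are shown as the promoter of a gene that was higher and of one near equality. They were read from chr15:78305722-78305971 and chr5:147400490-147400739, both on the minus strand. Capitals mark a match to GAGGAA, a core of sites for the myeloid factor PU.1, searched on either strand.
Csf2rb2: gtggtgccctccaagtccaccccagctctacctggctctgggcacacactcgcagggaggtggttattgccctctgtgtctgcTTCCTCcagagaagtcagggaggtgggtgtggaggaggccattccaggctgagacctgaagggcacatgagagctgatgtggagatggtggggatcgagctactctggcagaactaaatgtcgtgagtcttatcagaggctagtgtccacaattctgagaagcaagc
Flt3: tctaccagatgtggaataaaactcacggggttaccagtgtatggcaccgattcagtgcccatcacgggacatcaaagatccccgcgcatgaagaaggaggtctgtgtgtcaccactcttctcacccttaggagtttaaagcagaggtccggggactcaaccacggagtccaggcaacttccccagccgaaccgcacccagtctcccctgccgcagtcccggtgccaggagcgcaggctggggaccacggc
The Csf2rb2 promoter holds the GAGGAA core 167 bases before the start, on the strand opposite to the gene (printed as TTCCTC). The Flt3 promoter does not hold the core. In the same stretch before the RefSeq start, it was also found for Csf3r, Csf2ra and Kit and not for Il3ra and Epor, and 23.3% of 32851 promoters of the same length hold it. The RefSeq start lies inside the gene as GENCODE M21 gives it by 109 bases for Csf3r and by 11 for Csf2ra, so their matches (86 bases before the RefSeq start for Csf3r, 14 and 8 for Csf2ra) reach into the annotated gene. TTNNGNAA, a form of C/EBP site, was matched for Csf2ra and Il3ra, against 36.8% of all, and the Il3ra match also lies inside its gene in GENCODE M21. Of these 7 promoters only that of Epor holds TGTGGT (a RUNX core, 14% of all) or AGATAA (bound by factors of the GATA family, 10% of all), and it holds both. These matches describe letters, not binding.

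Ligands of these receptors were scarce in the sorted cells. Of 8 ligand genes, Csf2, Csf3, Il3 and Epo had 0 counts in both libraries, which allows up to 0.247 and 0.236 CPM, and Kitl and Il34 had 0 and 1. Flt3l, the ligand of Flt3, had 135 and 183 counts, 11.1 and 14.4 CPM, a ratio of 1.29 (1.03 to 1.63). Csf1, a ligand of the Csf1r product, had 108 and 65 counts, 8.88 and 5.10 CPM, and was thus 1.74-fold lower under the label P2x7-KO (1.27 to 2.40), against the direction of its receptor gene. Neither passed the rule.

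Directly below the receptors, genes of the JAK and STAT step lay mostly above equality without reaching 2-fold. Of 15 counted of 16 listed, 1 was higher and 1 lower by the rule (10.8% and 8.95% over all genes). The median log2 ratio was 0.65 (0.005 over all genes). Jak2, the kinase bound by Csf2rb and Epor, had 612 and 1091 counts, 50.3 and 85.7 CPM, a ratio of 1.70 (1.54 to 1.88). Stat5b stood at 1.68 (1.56 to 1.80) and Stat5a at 1.24 (1.13 to 1.36), both encoding the STAT5 factors that these receptors use. The feedback inhibitor gene Socs1 was 2.77-fold lower (2.09 to 3.70), at 185 against 70 counts, and Socs3 was higher at 7 against 19 counts (2.59-fold, 1.04 to 7.30). Other feedback genes gave few counts: Cish had 27 and 45 counts (1.59, 0.97 to 2.67), and Socs2 had 2 and 4.

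Adaptors and kinases that the receptors share had more members past the rule. Of 29 counted of 30 listed, 8 were higher and 0 lower (10.8% and 8.95% over all genes), with a median log2 ratio of 0.44. They included Sos2, Braf, Gab1, Gab2 and Pik3r5 of the RAS and PI3K routes and the SRC family kinase genes Lyn and Fgr. Fgr stood at 27.3 and 72.4 CPM (2.65-fold, 2.34 to 3.02), Sos2 at 52.9 and 139 CPM (2.63-fold, 2.40 to 2.88), Braf at 36.99 and 86.8 CPM (2.35-fold, 2.10 to 2.62) and Lyn at 120.1 and 266.8 CPM (2.22-fold, 2.09 to 2.36). After the length and GC adjustment 5 were higher and 0 lower (8.49% and 5.82% over all genes so adjusted). Sos2, Braf and Gab2 were then under 2-fold, at log2 ratios of 0.94, 0.56 and 0.97.

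Negative regulators had 3 of 18 higher and 0 lower, with a median log2 ratio of 0.36, and 2 of 18 higher after the length and GC adjustment. Both counts lie near the shares over all genes, 10.8% and 8.49%. The receptor phosphatase gene Ptprj had 163 and 812 counts (4.76-fold, 4.02 to 5.67). Cbl, which encodes the ubiquitin ligase that sends Kit, Flt3 and Csf1r proteins to degradation, had 1017 and 3624 counts, 83.6 and 284.6 CPM (3.40-fold, 3.17 to 3.65). The RAS brake gene Nf1 was 2.09-fold higher (1.73 to 2.54), and its log2 ratio came to 0.40 after the length and GC adjustment. The other two were still past 2-fold then, at 1.95 (Ptprj) and 1.26 (Cbl).

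Genes listed as targets of STAT5 or ERK signals lay mostly below equality. The list pools the targets of both signals, so its median describes neither alone. Of 18 counted of 21 listed, 6 were lower and 1 higher (8.95% and 10.8% over all genes), with a median log2 ratio of -0.37. Egr1, at 1804 against 305 counts, was 6.19-fold lower (5.48 to 7.01), Etv4, at 103 against 22, 4.90-fold (3.07 to 8.16), Fos 2.47-fold (2.39 to 2.55) and Id1 2.28-fold (2.07 to 2.51). Osm and Etv5 were the others that were lower, at 2.06-fold and 2.11-fold. Id2 was the 1 higher gene (2.02-fold, 1.86 to 2.20). Of the rest, Cish (1.59), Bcl6 (1.575), Bcl2l1 (1.34) and Mcl1 (1.135) had ratios above 1, and Ccnd3 stood at 1.002. Below 1 were Ccnd1 (0.88), Pim2 (0.80), Dusp6 (0.75), Ccnd2 (0.67) and Myc (0.62). The kinase gene Pim1, a STAT5 target, stood at 40.7 and 74.3 CPM, a ratio of 1.83 (1.64 to 2.04), and passed the rule only after the length and GC adjustment, at a log2 ratio of 1.15. After that adjustment 4 of the 18 were lower and 2 higher (5.82% and 8.49% over all genes so adjusted).

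**Figure D5:**
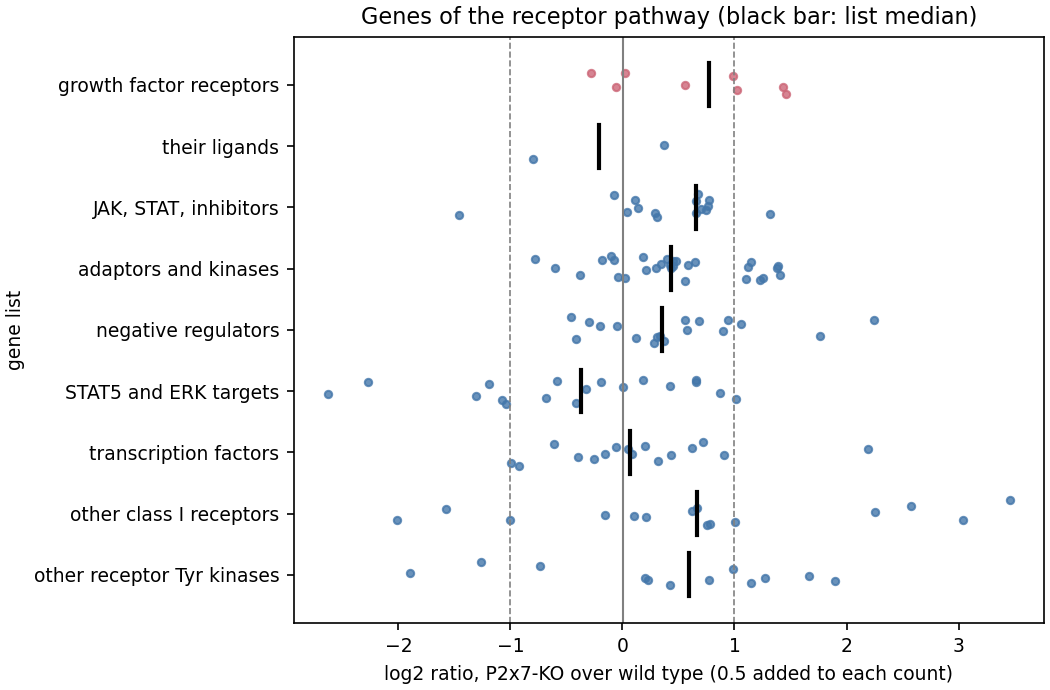
Log2 ratios, P2x7-KO over wild type with 0.5 added to each count (x), of the counted genes of each pathway list (y), 1 point a gene, with black bars at the list medians, dashed lines at 2-fold and a grey line at the median of all genes. The medians run from -0.37 for the STAT5 and ERK targets to 0.77 for the growth factor receptors.

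Transcription factors known to act at receptor genes went both ways, mostly by less than 2-fold. Of 16 counted of 19 listed, 1 was higher and 0 lower (10.8% and 8.95% over all genes). The higher gene was Bach2 (4 against 21 counts, 5.02-fold, 1.69 to 20.1). The median log2 ratio of 0.07 turned to -0.03 after the length and GC adjustment. At a fold of 1.5, 4 were higher and 3 lower, near the shares over all genes (21.1% and 18.9%). Among them were Cebpb (1.88-fold higher, 1.76 to 2.01), Gata2 (1.99-fold lower, 1.84 to 2.16) and Cebpe (1.90-fold lower, 1.78 to 2.03). After the length and GC adjustment 2 were higher, Bach2 and Cebpb, and 0 lower (8.49% and 5.82% over all genes so adjusted). Spi1, which encodes PU.1, had 6111 and 6142 counts (0.96, 0.93 to 0.99). Cebpa stood at 112.2 and 139.9 CPM (1.25, 1.16 to 1.34).

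Other receptors of the same families went both ways. Of 28 further class I cytokine receptor genes, 15 were counted. Of these, 5 were higher and 3 lower (10.8% and 8.95% over all genes), with a median log2 ratio of 0.67. The higher ones were Lifr (67 against 775 counts, 11.05-fold, 8.60 to 14.4), Il13ra1 (5.98-fold, 4.82 to 7.47), Il6ra (4.77-fold, 4.31 to 5.30), Il2rb (2 against 21 counts, 10.03-fold, 2.45 to 88.2) and Il6st (2.01-fold, 1.75 to 2.31). Lower were the interleukin-7 receptor gene Il7r (4.08-fold, 2.71 to 6.32), Il12rb2 (35 against 12 counts, 3.05-fold, 1.55 to 6.46) and the common gamma chain gene Il2rg (2.01-fold, 1.72 to 2.34). After the length and GC adjustment 5 were higher and 2 lower (8.49% and 5.82% over all genes so adjusted). Il6st (log2 ratio 0.555) and Il2rg (-0.88) then missed the rule, and Il21r (1.03) passed it. Il5ra, whose product also pairs with the beta chain, had 3 counts and 2.

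Most receptor tyrosine kinases other than the 3 members were hardly detected: 12 of 43 were counted and 18 had 0 counts in both libraries. Of the 12, 4 were higher and 2 lower (10.8% and 8.95% over all genes). Higher were Erbb3 (3.75-fold, 2.97 to 4.77), Met (3.18-fold, 2.57 to 3.95), Insr (2.22-fold, 1.99 to 2.48) and Axl (8 against 21 counts, 2.51-fold, 1.07 to 6.55). Lower were Epha7, at 2600 against 729 counts (3.73-fold, 3.44 to 4.06), and Ephb2, at 42 against 18 (2.44-fold, 1.38 to 4.51). After the length and GC adjustment 4 were higher and 2 lower (8.49% and 5.82% over all genes so adjusted). Insr was then out (log2 ratio 0.60) and Ddr1 in (1.08, at 16 against 29 counts). The platelet-derived growth factor receptor genes, which share the subfamily of Kit, Flt3 and Csf1r, had 1 and 0 counts (Pdgfra) and 1104 and 693 (Pdgfrb, 1.67-fold lower, 1.52 to 1.84).

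Cell type markers differed between the libraries beside the receptors. Over all genes counted, 10.8% were higher and 8.95% lower. With the length and GC adjustment these shares were 8.49% and 5.82% of all genes so adjusted. Without Csf1r, 8 of 15 counted monocyte and macrophage genes were higher and 1 lower, among them F13a1 (6.65-fold), Fn1 (5.95-fold), Ccr2 (6.50-fold) and Mpeg1 (4.69-fold). After the length and GC adjustment 7 of the 15 were higher and 0 lower. The summed level of these marker genes was 2696.5 CPM in the wild type-labelled library and 5385.9 CPM in the other, a ratio of 1.997, where Csf1r had 2.75. Neutrophil genes without Csf3r had 1 of 14 higher (Mmp8, 3.89-fold) and 2 lower (S100a8, 2.53-fold, and Retnlg, 3.70-fold). They summed to 8408.7 and 7595.7 CPM, a ratio of 0.90, where Csf3r had 1.98. Such sums weigh the most abundant genes most. The median log2 ratio of the 14 was -0.01. After the length and GC adjustment it was 0.44, with 2 higher and 2 lower, where Csf3r had 1.17. Mast cell and basophil genes without Kit had 2 of 5 lower (Cpa3, 15.2-fold, and Hdc, 11.6-fold) and 0 higher, and summed to 521.3 and 111.7 CPM, a ratio of 0.21, where Kit had 1.47; Fcer1a, Tpsb2 and Cma1 were at 0. Stem and progenitor genes without Kit and Flt3 had 4 of 9 lower (Sox4, Egr1, Mllt3 and Cd27) and 1 higher (Cd93), and summed to 795.8 and 681.9 CPM. After the length and GC adjustment 5 of the 9 were lower and 1 higher.

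Markers of cells outside these lineages were few, and their counts stand beside the same shares over all genes (10.8% higher and 8.95% lower). Of 12 erythroid genes other than Epor, 3 were counted: the globin genes Hbb-bs (1 against 58 counts, ratio 55.4, 9.56 to 2226) and Hba-a1 (2 against 41, ratio 19.6, 5.09 to 167.1) were higher, and Tfrc was neither. Klf1 had 7 and 5 counts. Dendritic cell genes without Flt3 had 3 of 5 higher (Siglech, Cd74 and Irf4) and 1 lower (Bst2), and summed to 519.2 and 573.3 CPM, with Xcr1 and H2-Aa at 0. B lymphoid genes had 3 of 5 higher (Jchain, Igkc and Cd22) and 1 lower (Ighm), and T and NK genes 1 of 3 higher (Ccl5) and 2 lower (Il7r and Nkg7), with Trac and Ncr1 at 0. Of 2 megakaryocyte genes counted, Vwf was higher and Itga2b lower, with Pf4 and Ppbp at 0, and of 3 eosinophil genes 0 were apart. After the length and GC adjustment Bst2 (log2 ratio -0.695) and Ighm (-0.98) missed the rule, and 1 eosinophil gene was higher. The part of these cell types in the receptor values was not tested.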

How the data were processed

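RNA was sequenced from 2 libraries of sorted mouse AML cells, 1 per group, mapped to groups by the genotype label. Its values, as deposited, are raw counts of 46095 genes (0 value columns left out). Per the submitters' processing notes, HISAT2 2.0.4 and the build mm10 were used. Not given in the sources used here: counting program, annotation, strand setting and read length. Ratios used TMM scaling (edgeR 4.0.16, R 4.3.3) over all genes, a minimum of 20 counts over both libraries and Clopper-Pearson intervals of a gene's share of counts (scipy 1.17.1), and CPM intervals are exact Poisson. Reads are not independent molecules, so intervals cover counting error only. Medians use 0.5 added to each count. Pair proportions used exact conditional odds ratios. Length and GC adjustment subtracted smooth trends (mgcv 1.9.3), for 12374 genes (92.6%) matched to GENCODE M21. DESeq2 1.42.0 gave 1 other scaling. Members and lists were chosen with earlier results of these data known. Named are all members, all ligands, preset pathway genes, up to 4 genes per list and direction by the nearer interval bound, and a few more, chosen after their values were seen, where a list is described. A few listed genes are counted within their lists and not reported here by name.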

Additional observations from a re-analysis of the deposited data

How the results depend on the processing

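The count of receptor genes at least 2-fold higher, 3, was 4 with total count scaling, with DESeq2 size factors or at a fold of 1.5, 2 with upper quartile scaling, and 3 under the other settings run. Of 25 pairs of receptor genes in unequal proportion, 25 remained at an interval of 99%. Over all genes, 2643 were at least 2-fold apart (1447 higher and 1196 lower). At a fold of 1.5 there were 5346 (2825 higher and 2521 lower). The count of lower genes came to 769 after adjustment for length, 720 after adjustment for length and GC content, and 792 among mRNA genes only. Fewer genes could be tested in these 3 settings (12374, 12374 and 11316, against 13363). The share called lower also fell, from 8.95% to 6.21% with the length adjustment and 5.82% with length and GC content. The cause was not tested. Of 123 genes counted in the pathway lists together, without the receptor genes, 35 were apart at 2-fold, against 19.8% of all genes. At 1.5-fold 64 were apart, where 21.1% of all genes were higher and 18.9% lower. No scaling moved the median of all genes by more than 0.068 on the log2 scale. The median of the receptor genes, 0.77, came to 0.46 after adjustment for length. Depth limits Epor and most ligands, at 0 or 1 count. No paired analysis was possible because each group holds 1 library, and no library could be left out for the same reason.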
